A study of Mus musculus with 3 samples.

Results

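The solvent control of this series was a culture of primary cerebral cells that received 0.1% DMSO (dimethyl sulfoxide, the solvent of the drugs tested elsewhere in the series) and was profiled on 1 array of the 3. The strain was C57BL6/J, the tissue was cerebrum taken on embryonic day 18, and the dissociated cells lived in neurobasal medium, a medium made for neurons, with the B27 supplement and no serum named in the labels. The solvent was on the cells for 24 h from day 10 in vitro, which puts the RNA at 11 days. The other 2 arrays held cultures given 1 mM valproate or 100 µM lamotrigine and served here only to check detection. The array was chosen by its label alone, and the values describe 1 culture: there is no replicate, no test and no p-value, and the number of embryos pooled and their sex are not stated in the labels.

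Dissociated cells of the late embryonic cerebrum carry neurons that have already left the cell cycle, together with radial glia, the progenitors that give rise to astrocytes and oligodendrocytes around birth. The cerebrum includes cortex, hippocampus and striatum, so projection neurons that release glutamate and neurons that release GABA are both dissected. Cells of the vessels, the meninges, the ventricle wall and the choroid plexus, and microglia, the macrophages of the brain, can come along. Each is read here from the RNA of marker genes in the whole dish, in which fewer cells of a type and less RNA per cell cannot be told apart.

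The array carried 59305 spots that were not controls, for 55681 probes of 60 bases, and 55680 probes had a usable spot. Every level below is a scaled signal, set so that the 75th percentile of these spots, a raw intensity of 372, equals 100. A gene was detected if at least 1 of its probes was well above background by the scanner software's call, and its level is that of its brightest detected probe. Because probes bind their targets with unequal strength, the level of one gene is not set against that of another. Of the 22340 genes with a probe, 14514 were detected, or 65.0%, which is the background against which each list of genes is read. Detected genes ran from the lowest detected signal of 5.29 to 55975, with a median of 185. Among 308 negative control spots, which match no mouse sequence by design, 2 were called well above background, a share of 0.649% (exact 95% interval 0.0787% to 2.33%, counting error only). No spot was saturated (0 of 59305).

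**Figure D1:**
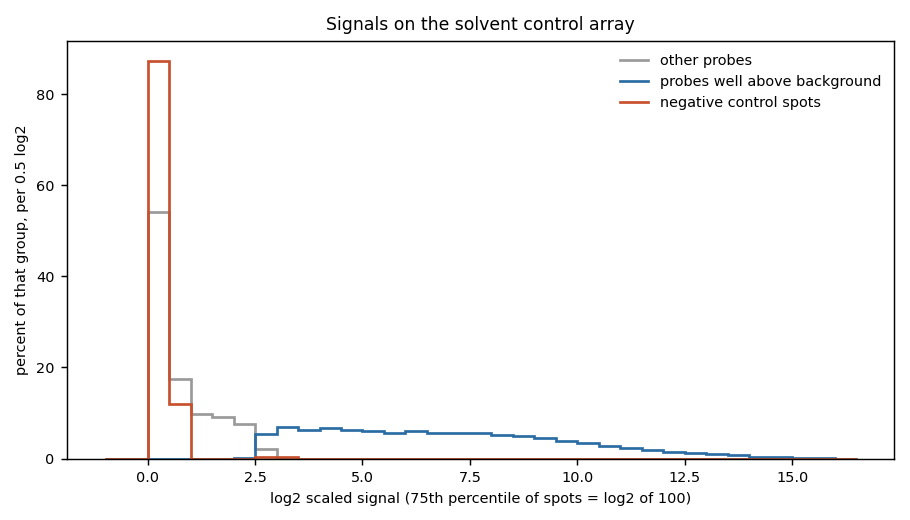
Distribution of log2 scaled signal on the solvent control array, as the percent of each group per bin of 0.5, for probes well above background, for the other probes and for the negative control spots. The negative controls and the other probes pile up at the left, and the detected probes spread from the lowest detected signal of 5.29 upward.

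Probes printed about 10 times gave the error of a single reading. Over the 263 such probes that were detected, the median SD between spots was 0.06 on the log2 scale. It was 0.18 for the 33 probes with a scaled signal under 25, 0.08 for the 52 from 25 to 100, 0.06 for the 91 from 100 to 400 and 0.05 for the 87 above that. A dim detected gene is therefore read less precisely than a bright one, and this error covers the array and not the culture.

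Different probes of a gene disagreed far more than repeated spots. Of the 7030 genes with several probes, 3808 had every probe detected, 1295 had none, and 1927, or 27.4%, had some probes detected and others not. The other 15310 genes rested on 1 probe. Where a gene below rests on 1 detected probe among several, that is said beside its value.

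The brightest signals of all raised a question of what some probes measured, and the sequences of those probes are shown because they carry that question. Each probe was searched for a stretch of 16 bases that also stands, on either strand, in the promoter windows of at least 5 other genes (RefSeq, GRCm38.p6, 32851 windows of 300 bases), and such a stretch is called recurring. Below are 30 bases of the probe of each gene, with the most widely shared recurring stretch in capitals. Kctd14, Ttc38, Glrx2, Elk1 and Slc10a1 carry bases of the kind found in B1 elements, a family of short interspersed repeats with very many copies in the mouse genome. Exosc2, Milr1, Pirb, Synrg, Pbld1 and Fam177a2 carry bases of the kind found in B2 elements, another such family.
Kctd14: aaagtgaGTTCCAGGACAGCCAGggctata
Ttc38: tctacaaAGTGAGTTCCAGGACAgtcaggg
Glrx2: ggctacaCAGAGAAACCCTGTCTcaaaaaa
Elk1: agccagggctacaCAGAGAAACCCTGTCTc
Slc10a1: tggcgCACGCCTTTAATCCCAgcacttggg
Exosc2: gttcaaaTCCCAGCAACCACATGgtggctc
Milr1: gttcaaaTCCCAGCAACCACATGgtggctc
Pirb: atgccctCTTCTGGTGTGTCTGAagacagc
Synrg: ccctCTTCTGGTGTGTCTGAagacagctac
Pbld1: tggagtgTCTGAAGACAGCTACAgtgtaat
Fam177a2: tctggtgTCTGAAGACAGCTACAgtgttct
Zfp628: ggccctgCCCCCGGCCCCGCCCCtgccccc

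Glrx2 and Elk1 share the same 16 bases, as do Exosc2 with Milr1, Pirb with Synrg, and Pbld1 with Fam177a2. The stretch of Exosc2 and Milr1 stood in 0.201% of the promoter windows, that of Pirb and Synrg in 0.152%, that of Pbld1 and Fam177a2 in 0.152%, and that of Glrx2 and Elk1 in 0.128%. The stretch of Kctd14 stood in 0.107% of windows, that of Ttc38 in 0.0944%, that of Slc10a1 in 0.0244% and that of Zfp628, a run of C and G, in 0.0183%. These shares describe letters in promoters and say nothing of a factor's binding.

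The 12 genes above were all among the 30 brightest named genes, and in most of them the bright probe stood alone. Kctd14, a gene of the potassium channel tetramerisation domain family, had the brightest probe, at chr7:104606896-104606955 (mm9), with a scaled signal of 55975, while its other probes read 30.7 and 13.2. Slc10a1, the bile acid uptake transporter of the liver, read 51603 at chr12:82056539-82056598 (mm9), and its other probe was not detected at 1.32. Glrx2, a mitochondrial glutaredoxin, read 48576, 563 and 2.42, the last not detected.

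The transcription factor Elk1 read 45527 from the probe with the stretch at chrX:20510521-20510580 (mm9) and 17.1 from the other. Pirb, an inhibitory receptor of immune cells that is also known in neurons, read 41830 from the probe shown, and its other probes were not detected at 2.26 and 1.37. The Pirb probe at 1.37 also held a recurring stretch. Pbld1 read 33941 and, undetected, 2.18. Milr1, an immunoglobulin-like receptor of mast cells, differed from these: a second probe with a recurring stretch read 11069 and the last read 112. Exosc2, a subunit of the RNA exosome, had no other probe. Whether the signals of these 12 probes came from RNA of the named genes was not tested.

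Over the whole array, probes whose stretches were shared more widely were detected more often and read brighter, which is given as a description. Of the 39478 probes whose stretches stood in no other gene's promoter, 47.5% were detected, with a median scaled signal of 4.87. The share detected was 49.3% where 1 to 4 other genes shared a stretch, 66.5% for 5 to 19 and 85.2% for 20 to 99. Of the 116 probes with a stretch in 100 or more genes, 96.6% were detected, and their median was 1415. Of these 116, 113 held a tandem run of at least 16 bases, such as a run of CA. In all, 1044 probes held a recurring stretch. Without them 14221 of 22083 genes were detected, or 64.4%, 88 genes turned undetected and 257 had no probe left. The probes left out this way include the only probe of Snap25, a gene of the synapse described below.

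**Figure D2:**
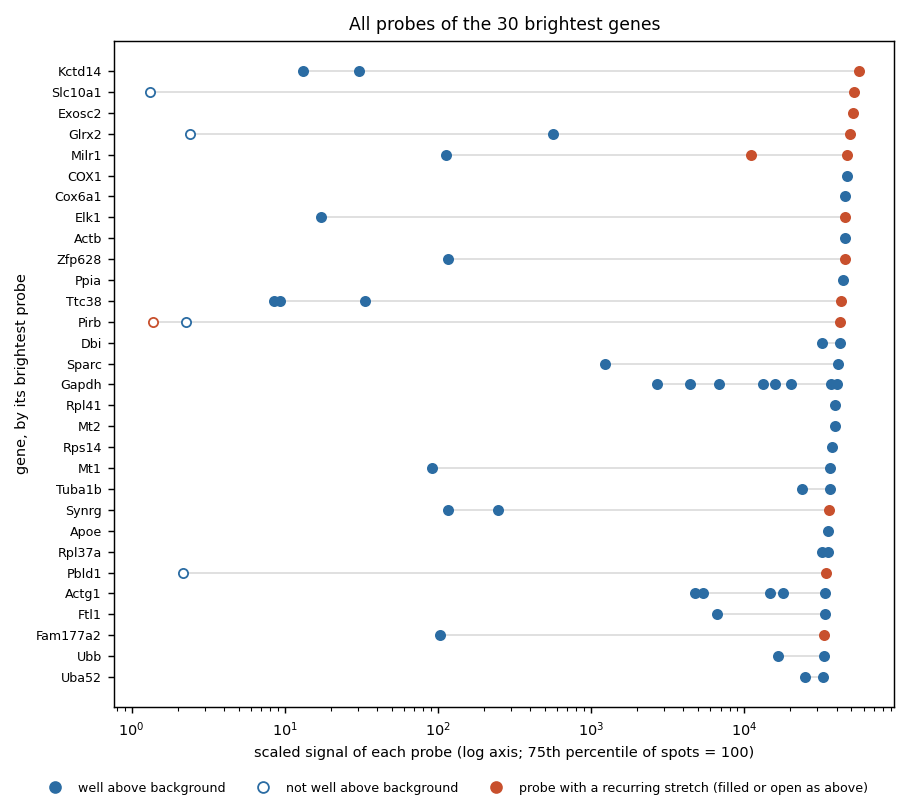
Scaled signal (log axis) of every probe of the 30 brightest named genes, ordered by their brightest probe. Filled points are well above background, open points are not, and red marks the probes with a recurring stretch: 12 of the 30 genes owe their place to one, and their other probes mostly lie far to the left, as for Slc10a1 at 1.32.

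The brightest genes whose probes held no recurring stretch included genes of energy metabolism, protein synthesis, the cytoskeleton and glia. COX1, a subunit of cytochrome oxidase encoded by the mitochondrial genome, read 46927, and its nuclear-encoded partner Cox6a1 read 45591. Actb, cytoplasmic actin, read 45439, and Ppia, the prolyl isomerase cyclophilin A, read 43826. Gapdh, of glycolysis, was detected by 8 of 8 probes, which ran from 2675 to 40229. That span between probes of a single gene shows how loosely a signal stands for an amount of RNA.

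Several of the brightest genes are known from astrocytes. Sparc, a secreted matrix protein, read 40945 and 1240 from its probes, and the related Sparcl1 read 28498. Apoe, the lipid carrier secreted by astrocytes, read 35265. The metallothioneins, which bind zinc and copper, were represented by Mt2 at 38910 and by Mt1 at 36364, whose other probe read 91.3. Dbi, the acyl-CoA binding protein and source of a peptide that acts on GABA-A receptors, read 41817 and 32322.

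Genes known from neurons and growing neurites stood beside them. Tuba1b, an alpha-tubulin, read 36100 and 23849 from its probes, and Tubb2a, a beta-tubulin, read 28437. Rtn1, a reticulon of the neuronal endoplasmic reticulum, read 30093. Further down the list Stmn1, which destabilises microtubules, read 26169, and Cpe, which trims peptide hormones in secretory granules, read 26573.

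Of the 100 brightest named genes without a recurring stretch, 32 were cytosolic ribosomal proteins, 5 were tubulins and 4 were encoded by the mitochondrial genome. The list also held the astrocyte enzyme Aldoc at 25995 and Fabp7, the fatty acid binding protein of radial glia, at 21751. A few entries fell outside these groups, chosen here after their values were seen. Sprr2a2, a cornified envelope protein of skin, read 17095 from 1 of its 3 probes without a recurring stretch, and the other 2 were not detected. Atp9a, a lipid flippase, read 27830 from one probe and 87.7 from the other. Of the 88 measured cytosolic ribosomal protein genes 85 were detected, with a median of 13254.

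Neuronal RNA was present across the whole marker list. All 18 pan-neuronal genes measured were detected, each above 100, with a median of 2392. Tubb3, the neuronal beta-tubulin, read 7649. Map2, which bundles microtubules in dendrites, was detected by 3 of 3 probes, the brightest at 1195. Rbfox3, the antigen NeuN of mature neurons, read 2677 and was also detected by 3 of 3 probes.

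Axonal genes were detected with the dendritic ones. Mapt, the tau protein, read 13598 with 3 of 3 probes detected. Gap43, of the growth cone, read 10579, and Stmn2, a microtubule regulator of growing axons, read 12623. The neurofilament subunits Nefl, Nefm and Nefh read 1133, 131 and 199, and the SD of Nefm over its spots was 0.04 on the log2 scale. Dcx, the microtubule protein of young migrating neurons, still read 1207 on 3 of 3 probes.

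Markers of both main transmitter classes were present. All 12 genes of the excitatory list were detected, with a median of 218, or 173 without probes that hold a recurring stretch. Slc17a7, the vesicular glutamate transporter VGLUT1, read 95.8, and Slc17a6, VGLUT2, read 124. Tbr1, a transcription factor of early-born cortical neurons, read 873 on 2 of 2 probes, and Neurod2 and Neurod6, factors of cortical projection neurons, read 507 and 367. At the dim end were Neurod1 at 17.5 and Slc30a3, the zinc transporter of glutamatergic vesicles, at 7.15. Camk2a, the synaptic calcium-dependent kinase, read 197 from a probe with a recurring stretch and 46.4 from another, and its last probe was not detected.

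All 13 genes of the inhibitory list were detected too, with a median of 501, or 211 without probes that hold a recurring stretch. Gad1 and Gad2, the enzymes that make GABA, read 631 and 537. Slc32a1, which loads GABA into vesicles, read 4906 on 2 of 2 probes. Of the transcription factors that specify these neurons, Dlx2 read 211 and Dlx5 read 41.8. Dlx6 was close to the detection limit at 7.73, and Dlx1 read 141 from 1 of 2 probes. The levels do not give the ratio of excitatory to inhibitory cells.

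Astrocyte markers were complete as well. All 14 were detected, each above 100, with a median of 1728. Gfap, the intermediate filament of astrocytes, read 2242 on 3 of 3 probes. Aqp4, the water channel of astrocyte endfeet, read 2443 on 2 of 2 probes. The glutamate transporters Slc1a3 and Slc1a2 read 3378 and 296, and Glul, which turns glutamate into glutamine, read 3496. Aldh1l1, a folate enzyme used as an astrocyte marker, read 5887. The gap junction subunits Gja1 and Gjb6 read 263 (SD 0.05 on the log2 scale over its spots) and 123.

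Oligodendrocyte lineage genes were detected in part, and the gaps lay among the late genes. Of the 9 precursor genes 8 were detected, with a median of 259. Olig1 and Olig2, transcription factors of the lineage, read 2999 and 312, and Sox10 read 267. Pdgfra and Cspg4, surface markers of precursors, read 343 and 130. Gpr17, a receptor of committed precursors about to differentiate, read 251. Enpp6, of newly formed oligodendrocytes, was not detected at 2.71 on the brighter of its 2 probes.

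Of 12 genes of mature oligodendrocytes 8 were detected, or 66.7%, near the 65.0% of all genes. Their median was 154, or 130 without probes that hold a recurring stretch. Mbp, myelin basic protein, read 172 with 3 of 3 probes detected, and Cnp read 478. Mog and Mag, proteins of the outer and inner myelin surface, were detected under 25, Mog at 24.1. Myrf, the transcription factor that drives myelin genes, was not detected at 1.12. Neither were Mobp at 2.80, Opalin at 1.13 or Aspa at 5.94. Ermn read 806 from a probe with a recurring stretch of AAG triplets and 20.1 from the other.

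Radial glia and progenitor genes were detected except for those of neurogenic commitment. Of 15 such genes 12 were detected, with a median of 538. Fabp7 read 21751, the intermediate filaments Vim and Nes read 7991 and 2130, and Hes5, a target of Notch signalling, read 3023. Sox2, a factor of neural stem cells, read 351. Other detected members were dim: Hes1 read 8.81, Tnc read 13.6 on 2 of 2 probes and Pax6 read 33.8 on 1 of 2. Eomes, the factor of intermediate progenitors, was not detected at 3.55. Neurog1 and Neurog2, which commit cortical progenitors to neurons, were not detected either, at 1.67 and 4.07.

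Genes of dividing cells were also found. Of 14 proliferation genes 12 were detected, with a median of 472. Mki67 read 987 on 2 of 2 probes, Birc5 read 1308 on 3 of 3 and Rrm2, of nucleotide synthesis, read 1220. Pcna, the sliding clamp of replication, read 1675. Aurkb was not detected at 1.40, nor was Cenpf at 5.88. Which cells were dividing was not tested.

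**Figure D3:**
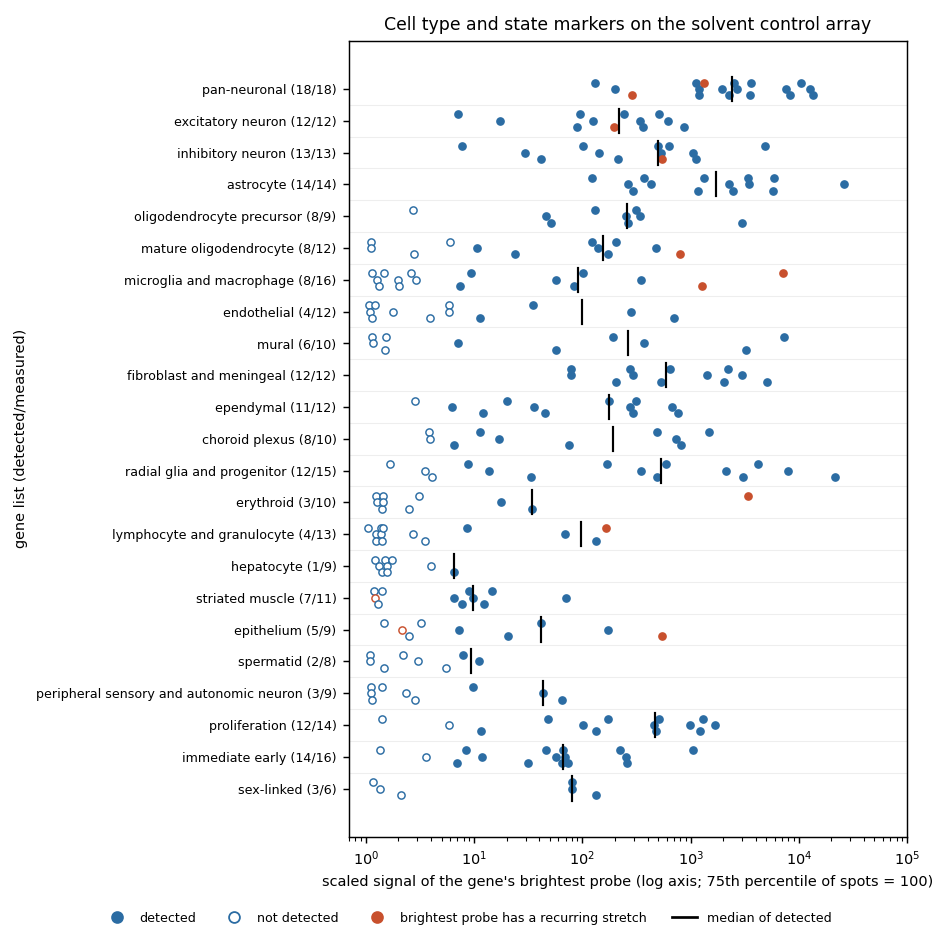
Scaled signal (log axis) of the brightest probe of each marker gene, 1 row per cell type or state list, with detected over measured genes in brackets. Filled points are detected, open points are not, red marks a brightest probe with a recurring stretch, and the bar is the median of the detected genes: pan-neuronal, excitatory, inhibitory, astrocyte and fibroblast lists have no open point, and the 8 open microglial genes lie below 3.

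Microglial genes split within the list. Of 16 genes 8 were detected, below the 65.0% of all genes. The complement genes C1qa and C1qc were not detected at 2.61 and 1.33, and C1qb read 9.36. The defining receptors Cx3cr1 and P2ry12 were not detected at 1.97 and 1.48, nor were Trem2 at 2.89, Tyrobp at 1.13, Ptprc (CD45) at 2.03 and the lineage factor Spi1 at 1.26. Detected members included Csf1r, the receptor for macrophage growth factor, at 101 on 2 of 3 probes, Tmem119 at 82.9, Cd68 at 56.9 on 1 of 2 probes and Aif1 at 7.48.

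The brightest microglial readings came from probes with recurring stretches. Itgam, the integrin CD11b, read 1264 from such a probe, and its other probes were not detected at 2.71 and 1.41. Siglech read 7162 from such a probe, 73.7 from another and 1.43, not detected, from the last. These probes are shown because the reading of the list turns on them.
Itgam: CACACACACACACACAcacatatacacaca
Siglech: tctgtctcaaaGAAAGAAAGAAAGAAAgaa

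The capitals again mark the recurring stretch. The CA run of Itgam stood in 0.451% of the promoter windows and the GAAA run of Siglech in 0.0578%. Without probes of this kind 7 of the 16 microglial genes were detected.

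Endothelial genes were mostly missing. Of 12 genes 4 were detected: Kdr, a receptor for vascular endothelial growth factor, at 701 on 2 of 2 probes, Slco1c1, a thyroxine transporter that astrocytes also express, at 281, Cdh5 at 35.3 and Vwf at 11.3 on 1 of 2. Cldn5, the tight junction protein of brain vessels, was not detected at 1.76, nor were Pecam1 at 5.91, Tie1 at 1.09, Tek at 1.13, Emcn at 1.22 and Esam at 1.07. Of 10 mural genes, those of pericytes and vascular smooth muscle, 6 were detected, or 60%, near the 65.0% of all genes. The contractile genes Acta2 and Tagln read 3270 and 7283, while Myh11, the smooth muscle myosin, was not detected at 1.13, nor was Des, desmin, at 1.52. The pericyte receptor Pdgfrb read 57.2 and Rgs5 read 7.05.

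Fibroblast and meningeal genes were complete. All 12 were detected, with a median of 588. Col3a1, a fibrillar collagen, read 647, and Col1a1 and Col1a2, which form collagen I, read 2016 and 2990. The small proteoglycans Dcn and Lum, which bind collagen fibrils, read 2219 and 276. Ptgds, prostaglandin D synthase of the meninges, read 5084. Foxc1, a factor of the meninges, read 203, and Aldh1a2, their retinoic acid synthase, read 295. Over the collagen family 32 of 44 genes were detected, with a median of 172.

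Genes of the ventricle wall were found for both of its epithelia. Of 12 ependymal genes 11 were detected, with a median of 178. Foxj1, the master regulator of motile cilia, read 771, Dynlrb2, a dynein light chain, read 673, and Ccdc153, a ciliary gene, read 314. Deup1, of the bodies that build many centrioles in a cell, was detected by 3 of 3 probes, the brightest at 178. Hydin, of the axoneme's central pair, read 12.2 from 1 of 3 probes, and Spag17 was not detected at 2.85.

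Of 10 choroid plexus genes 8 were detected, with a median of 191. Ttr, transthyretin, read 1490, Folr1, a folate receptor, read 809 on 2 of 2 probes, and the transcription factor Otx2 read 490 on 2 of 2. Enpp2, autotaxin, read 731. Kl, klotho, was not detected at 3.90, nor was Prlr at 3.85. The channel Kcnj13 was detected under 25 on 2 of 2 probes, and Aqp1, the water channel of the plexus, read 11.2.

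Lists of tissues outside the brain gave the other end of the range. Of 9 hepatocyte genes 1 was detected, Tat at 6.53, and Alb, albumin, was not detected at 1.32. Of 8 spermatid genes 2 were detected, at 7.98 for Acr and 11.2 for Tssk6. Of 10 erythroid genes measured 3 were detected, the brightest being Hemgn at 3386 from its only probe, which holds a TG run found in 0.451% of promoter windows, and Alas2, of haem synthesis, was not detected at 1.27. Of 13 lymphocyte and granulocyte genes 4 were detected, among them Cd3e at 134 from 1 probe.

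Lists of muscle, epithelium and peripheral nerve were mixed. The striated muscle list had 7 of 11 genes detected, or 63.6%, near the 65.0% of all genes. Of these 7, 6 were under 25, and the factors Myod1 and Myog were not detected at 1.22 and 1.19. Acta1, skeletal actin, read 70.0. Of 9 epithelial genes 5 were detected, or 55.6%. Among them Trp63 read 546 from a probe with a run of GCA triplets, while its other 3 probes were not detected. Of 9 genes of peripheral sensory and autonomic neurons 3 were detected, or 33.3%: Calca at 43.4 on 2 of 2 probes, Prph at 65.1 and Scn11a at 9.73.

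Receptor families of the sense organs were almost silent. Of 1095 olfactory receptor genes 36 were detected, or 3.29%, of which 26 read under 25. Olfr544 was the brightest at 595, then Olfr1229 at 157 and Olfr373 at 76.5, the last from 1 of 2 probes. Of 263 vomeronasal receptors 13 were detected and of 38 taste receptors 4. Of the 41 Hox genes, which pattern the hindbrain, spinal cord and trunk, 1 was detected: Hoxa9, at 5.77 on 1 of 2 probes. Keratins were detected for 13 of 49 genes.

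Genes on the sex chromosomes were read because the labels do not give the embryos' sex. Xist, which is transcribed from the inactive X chromosome of females, was detected by 2 of 2 probes, the brighter at 79.6. The Y-linked genes Ddx3y and Eif2s3y read 80.0 and 133. Kdm5d, Uty and Sry, also on the Y chromosome, were not detected at 2.13, 1.35 and 1.16. RNA of an X-inactivation gene and of Y-linked genes was thus measured in the same culture.

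Regional identity was read from transcription factors. Of 10 telencephalic factors 9 were detected, with a median of 141. Lhx2, a selector of cortical identity, read 1809, and Bcl11a read 1210 on 2 of 3 probes. Emx1 and Emx2, of the dorsal telencephalon, read 89.9 and 28.4. Otx1 was not detected at 3.55.

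Factors of more caudal regions were detected at a share near that of all genes. Of 17 genes of thalamus, midbrain and hindbrain 10 were detected, or 58.8%, against 65.0% of all genes. None of these 10 reached 100, and their median was 21.8. En1, Pax7 and Atoh1, of the midbrain and hindbrain, were not detected at 1.30, 1.34 and 1.21, nor was Ptf1a. Gbx2, a thalamic and hindbrain factor, was not detected at 5.75. Irx1 at 89.4, Irx3 at 52.4, Barhl1 at 52.0 on 1 of 2 probes and En2 at 38.7 were the brightest of the 10. Tcf7l2, of thalamic neurons, read 38.1 on 3 of 3 probes.

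Cortical layer genes were found for upper and deep layers. Of 12 upper-layer genes 11 were detected, with a median of 255. Cux1 and Cux2, factors of upper-layer neurons, read 1018 and 207, and Rorb of layer IV read 255. The guidance molecules Plxnd1 and Mdga1 read 1318 and 1446. Unc5d was not detected at 2.91.

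All 13 deep-layer and subplate genes were detected, with a median of 473. Bcl11b (Ctip2), of neurons that project below the cortex, read 305 on 2 of 2 probes and Fezf2, which specifies them, read 63.6. Rprm, Crym and Ldb2 read 1874, 1139 and 473. The layer VI markers Foxp2 and Tle4 were dim at 8.11 on 1 of 5 probes and 12.3 on 2 of 2. Sox5 read 2656 from a probe with a run of GGA triplets, and its other 2 probes were not detected, so that 12 of 13 deep-layer genes were detected without such probes.

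Cajal-Retzius neurons, the earliest-born cells at the cortical surface, were the cortical class with the fewest markers. Of 8 genes 4 were detected, none above 61.1, the signal of Calb2. Reln, which these cells secrete and interneurons also make, read 9.72, Trp73 read 27.6 on 1 of 3 probes and Lhx5 read 7.01. Ebf2, Ebf3, Lhx1 and Barhl2 were not detected.

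Most genes of the hippocampal and striatal lists were detected beside the cortical ones, with dim or undetected members in both lists. Of 7 hippocampal genes 6 were detected, among them Wfs1 at 1463, Dkk3 at 1381, Zbtb20 at 900 and Grik4 at 405. The others were dim or missing: Prox1, of dentate granule cells, read 8.70 and Lct was near the detection limit at 5.94. Man1a was not detected at 4.67 on the brighter of its 2 probes. Of 18 striatal genes 15 were detected, with a median of 211. Ppp1r1b (DARPP-32), the phosphatase inhibitor of striatal projection neurons, read 868, Penk and Tac1, their peptides, read 752 and 138, and Meis2 read 922. The dopamine receptors that divide these neurons into classes were dim, Drd1 at 10.9 and Drd2 at 7.79. Isl1, Ebf1 and Ikzf1 were not detected.

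Interneuron subclasses were read from their origin and their peptides. Of 13 genes of cells from the medial ganglionic eminence 12 were detected, with a median of 59.3. Sst, somatostatin, read 2198 (SD 0.04 on the log2 scale over its spots), Npy read 544, Cort, cortistatin, read 415 and Pvalb, parvalbumin, read 90.6 on 2 of 2 probes. Lhx6, the factor of these cells, read 544 from a probe with a recurring stretch and 62.9 from another. Nkx2-1, its upstream regulator, read 18.5 (SD 0.12 over its spots), and Nos1 read 10.1 on 1 of 2 probes.

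Of 12 genes of cells from the caudal ganglionic eminence 11 were detected, with a median of 61.1. Cck, cholecystokinin, which projection neurons also make, read 9605, and Cnr1, the cannabinoid receptor of Cck cells, read 1333 from 1 of 2 probes. Nr2f2 read 232 and Sp8 read 131 on 2 of 2 probes. Vip read 27.0, Htr3a read 25.3, Ndnf read 17.2 and Lamp5 read 9.28. Adarb2 was not detected at 2.12.

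Peptide genes were detected broadly. Of 22 neuropeptide and granin genes 21 were detected, with a median of 211. The granins Chgb, Chga, Scg3 and Vgf, proteins of secretory granules, read 3161, 2992, 3005 and 1463. Pdyn, prodynorphin, read 211 from 1 of 2 probes, and Gal, galanin, read 84.4. Crh, the stress hormone releaser also found in cortical interneurons, was not detected at 4.30.

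Cholinergic and monoaminergic genes were detected at 57.1% and 53.8%, near the 65.0% of all genes, and none reached 100. Of 7 cholinergic genes 4 were detected: Ache, the esterase, at 60.5, and under 25 Slc18a3 at 9.21, Lhx8 at 7.38 and Chat, which makes acetylcholine, at 6.17. The only probe of Chat holds a recurring stretch, and without such probes 3 of 6 genes were detected. The choline transporter Slc5a7 was not detected at 2.60. Of 13 monoaminergic genes 7 were detected, with Hdc, which makes histamine, at 78.2, Th, tyrosine hydroxylase, at 76.4 and Slc6a3, the dopamine transporter, at 49.0. The serotonin neuron genes Tph2, Slc6a4 and Fev were not detected, at 2.91, 1.43 and 1.22.

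Glycinergic and hypothalamic genes were detected at 25% and 36.4%, below the 65.0% of all genes. Of 4 glycinergic genes 1 was detected, Slc6a9 at 1289, a glycine transporter that astrocytes also carry, while the neuronal transporter Slc6a5 was not detected at 1.19. Of 11 hypothalamic peptide genes 4 were detected: Pomc at 82.8, Ghrh at 15.3, Trh at 8.19 and Agrp at 7.58. Avp, Oxt, Gnrh1 and Pmch were not detected, at 1.24, 5.07, 1.27 and 1.17.

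**Figure D4:**
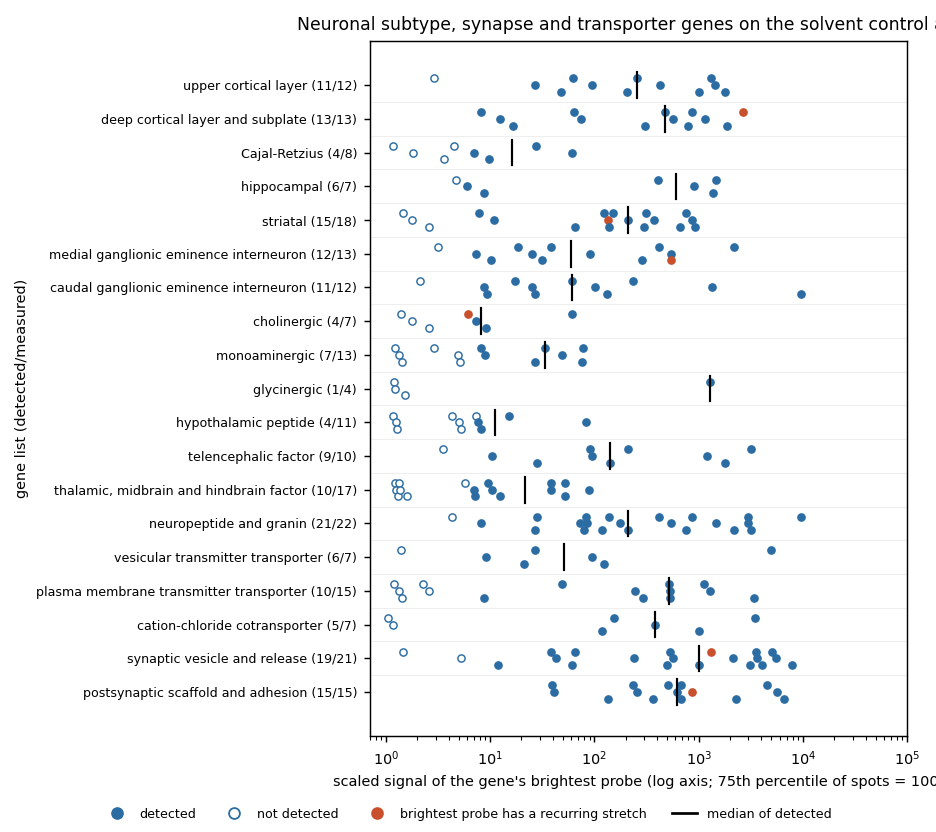
Scaled signal (log axis) of the brightest probe of each gene in the lists of neuronal subtypes, synapses and transporters, with detected over measured genes in brackets. Filled points are detected, open points are not, red marks a brightest probe with a recurring stretch and the bar is the median of the detected genes: deep-layer genes have no open point, and the cholinergic, monoaminergic and hypothalamic lists have no gene above 100.

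Synaptic machinery was detected nearly in full. Of 21 genes of the synaptic vesicle and its release 19 were detected, with a median of 1013. Syn1 and Syn2, the synapsins that tether vesicles, read 3105 and 5565, Syp, synaptophysin, read 3614, and Syt1, the calcium sensor of release, read 3541. Rab3a read 7904 and the complexin Cplx2 was detected by 5 of 5 probes, the brightest at 5037. Sv2c and Syt2, isoforms with a narrower distribution in the brain, were not detected at 5.21 and 1.47. Snap25, of the fusion complex, read 1317 from its only probe, which holds a recurring stretch.

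All 15 measured genes of postsynaptic scaffolds and adhesion were detected, with a median of 614. Dlg4 (PSD-95) and Dlg2, scaffolds of excitatory synapses, read 673 and 504, and Homer1 was detected by 5 of 5 probes at up to 236. Gphn, gephyrin, the scaffold of inhibitory synapses, read 614, and Nlgn2, their adhesion molecule, read 5614. The neurexins Nrxn2 and Nrxn3 read 6530 and 679 with all their probes detected. Shank3 read 254 from 1 of 2 probes.

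Glutamate receptor subunits were detected for each ionotropic class. All 4 AMPA receptor genes were detected, Gria1 at 566, Gria4 at 427, Gria3 at 98.0 and Gria2, the subunit that blocks calcium entry, at 63.6. All 7 NMDA receptor genes were detected: the obligatory Grin1 read 407, Grin2b, the juvenile subunit, read 297, and Grin2a, which joins with maturation, read 39.4, each on 2 of 2 probes. Grin2d and Grin3b were near the limit at 6.68 and 6.24. Of 7 kainate and delta receptor genes 6 were detected, Grik5 at 697 among them.

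Auxiliary and metabotropic subunits went with them. All 12 auxiliary genes were detected, from Cacng8 at 21.0 to Cnih2 at 10970 on 2 of 2 probes. Of 8 metabotropic receptors 7 were detected, with Grm5, coupled to calcium stores, at 1436 on 3 of 3 probes and Grm7 at 254. Grm6, of retinal bipolar cells, was not detected at 1.16.

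GABA receptor genes were detected except for rare subunits. Of 19 GABA-A genes 14 were detected, with a median of 187. The alpha subunits Gabra2, Gabra4 and Gabra5 read 80.1, 108 and 218, and Gabra3 read 971 from 1 of 2 probes. Gabrb1 and Gabrb2, beta subunits, read 674 and 665. Gabrd, of receptors outside the synapse, read 133. Gabra6, of cerebellar granule cells, was not detected at 1.33, nor were Gabre, Gabrp, Gabrq and Gabrr3.

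The cotransporters that set the chloride gradient for GABA were measured with them. Slc12a5 (KCC2), the chloride exporter of maturing neurons, read 3507 on 2 of 2 probes, and Slc12a2 (NKCC1), the importer of young neurons, read 385. Gabbr1 and Gabbr2, the partners of the GABA-B receptor, read 1656 and 45.5, each on 3 of 3 probes. Of 5 glycine receptor genes 2 were detected, the embryonic subunit Glra2 at 96.8 and Glrb at 179, and Glra1, of the adult spinal cord, was not detected at 1.23.

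Receptors for modulatory transmitters were detected less often than the 65.0% of all genes for several families. Of 16 nicotinic subunits 7 were detected, with Chrnb2 at 106 and its partner Chrna4 at 47.6, and Chrna7 at 8.81 on 1 of 2 probes. The muscle subunits Chrna1, Chrnd, Chrne and Chrng were not detected. Of 5 muscarinic receptors 2 were detected, Chrm1 at 196 from 1 of 2 probes and Chrm3 at 16.4. Of 5 dopamine receptors the detected ones were Drd1 and Drd2, both under 25 as given above.

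Of 14 serotonin receptors 6 were detected. Htr2c read 141 from 1 of 3 probes, Htr7 was detected by 1 of 2, and Htr3a, the ion channel, read 25.3. Htr1a and Htr1b were not detected at 4.38 and 1.49. Adrenergic receptors were more complete, with 7 of 9 detected: Adra2a read 558, Adra1b read 313 on 2 of 2 probes, Adra2c read 233 and Adrb1 read 128. Adra1d was not detected at 4.78. Hrh3, the presynaptic histamine receptor, read 312.

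Opioid receptors show how a list can turn on 1 probe. Of 4 genes 2 were detected: Oprl1, the nociceptin receptor, at 1088 on 2 of 2 probes, and Oprm1, the mu receptor, at 1411 on 1 of 4. The bright Oprm1 probe lies at chr10:3308332-3308391 (mm9) and holds a CA run, shown here with the recurring stretch in capitals.
Oprm1: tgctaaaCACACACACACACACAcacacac

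The other 3 probes of Oprm1 were not detected, the brightest at 2.39. The bright probes of Itgam, above, and of the keratin Krt222 hold the same run, and no other probe of these genes was detected. Lhx6 and Scn8a differed. Their bright probes hold a stretch found in the promoters of 138 genes, as does that of Oprm1. Yet another probe of each was detected, at 62.9 for Lhx6 and 21.6 for Scn8a. Whether the run accounts for the split was not tested. Oprd1 and Oprk1, the delta and kappa receptors, were not detected at 2.38 and 1.31.

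Other receptors for small molecules and peptides were mixed. Adora1, the inhibitory adenosine receptor, read 1648, and P2ry1 and P2rx4, receptors for nucleotides, read 141 and 327. Of 14 P2X and P2Y receptors 8 were detected, or 57.1%. Of 31 neuropeptide receptors 20 were detected, or 64.5%, near the 65.0% of all genes. Among them Adcyap1r1, for PACAP, read 947, and Ntsr2, the neurotensin receptor of astrocytes, read 909 on 2 of 2 probes. Sstr5 read 645 and Npy1r read 266. The galanin receptors Galr1, Galr2 and Galr3 were not detected at 1.36, 1.22 and 3.12.

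Growth factor and hormone receptors were more often detected. Of 24 growth factor receptor genes 21 were detected, with a median of 247. Ntrk2 (TrkB), the BDNF receptor, read 4689 on 3 of 3 probes, and Ntrk3 (TrkC) read 787 on 4 of 4. Fgfr1 read 3557 on 3 of 3 probes, and Erbb3 was not detected at 1.14. Of 15 nuclear hormone receptors 11 were detected, with Thra, for thyroid hormone, at 2232 and Nr3c1, for glucocorticoids, at 660, each on 2 of 2 probes. Esr1, the oestrogen receptor alpha, was not detected by any of its 4 probes, the brightest at 2.41, while Esr2 read 272 from its only probe, which holds a recurring stretch.

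Voltage-gated sodium channel genes were mostly detected. Of 14 genes 12 were detected, with a median of 103. Without probes that hold a recurring stretch 11 of 13 were detected, with a median of 37.3. Scn2a read 874 on 3 of 3 probes, Scn3a, the embryonic channel, read 429 on 4 of 5, and Scn1a, which rises after birth, read 75.2 on 2 of 2. Scn8a, of the axon initial segment, read 270 from a probe with a recurring stretch and 21.6 from another. Among the channels of sensory neurons, Scn9a and Scn10a were not detected at 1.11 and 2.33, while Scn11a was detected at 9.73.

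Potassium channels were detected unevenly between families. Of 17 Kv1 to Kv4 genes 16 were detected, with Kcna6 at 1701 on 3 of 3 probes, Kcnd3 at 1441 on 2 of 2 and Kcna1 at 387. Of 23 genes of the Kv7, EAG and silent families 16 were detected, or 69.6%, near the 65.0% of all genes. Among them was Kcnh3, an EAG-like channel of the forebrain, at 1344. Of 15 inward rectifiers 8 were detected, or 53.3%, with Kcnj10 (Kir4.1), the potassium buffer of astrocytes, at 2247. Its partner Kcnj16 read 185 and Kcnj4 read 1504. Kcnj6 (GIRK2) was not detected at 2.71. Kcnma1, the large-conductance calcium-activated channel, read 468 on 3 of 3 probes.

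Calcium and pacemaker channels followed. Of 18 voltage-gated calcium channel genes 15 were detected, with a median of 284. The pore-forming Cacna1a (P/Q type) read 284, Cacna1c (L type) read 576 from 1 of 2 probes and Cacna1i (T type) read 382, while Cacna1b (N type) and Cacna1e (R type) stayed at the detection limit, not detected, at 5.30 and 5.42. Cacna1h read 334 from a probe with a recurring stretch, and its other probes were not detected. Of 4 HCN genes 2 were detected, Hcn2 at 3798 on 2 of 2 probes and Hcn3 at 174.

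The other channel families were detected in part. Of 22 TRP channels 15 were detected, or 68.2%, near the 65.0% of all genes. Trpm7, a channel fused to a kinase, read 178 and Trpv2 read 166. Trpv1, the capsaicin receptor, was not detected at 1.12. Asic1, Asic2 and Asic4, acid-sensing channels, read 523, 469 and 325. Clcn3 and Clcn4, exchangers of endosomes, read 2791 and 3099. Of 12 aquaporins 5 were detected, and after Aqp4 the brightest was Aqp11 at 180. Of 21 connexins and pannexins 12 were detected, or 57.1%, with Panx1 at 1167 and Gjd2, of neuronal gap junctions, at 57.9.

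**Figure D5:**
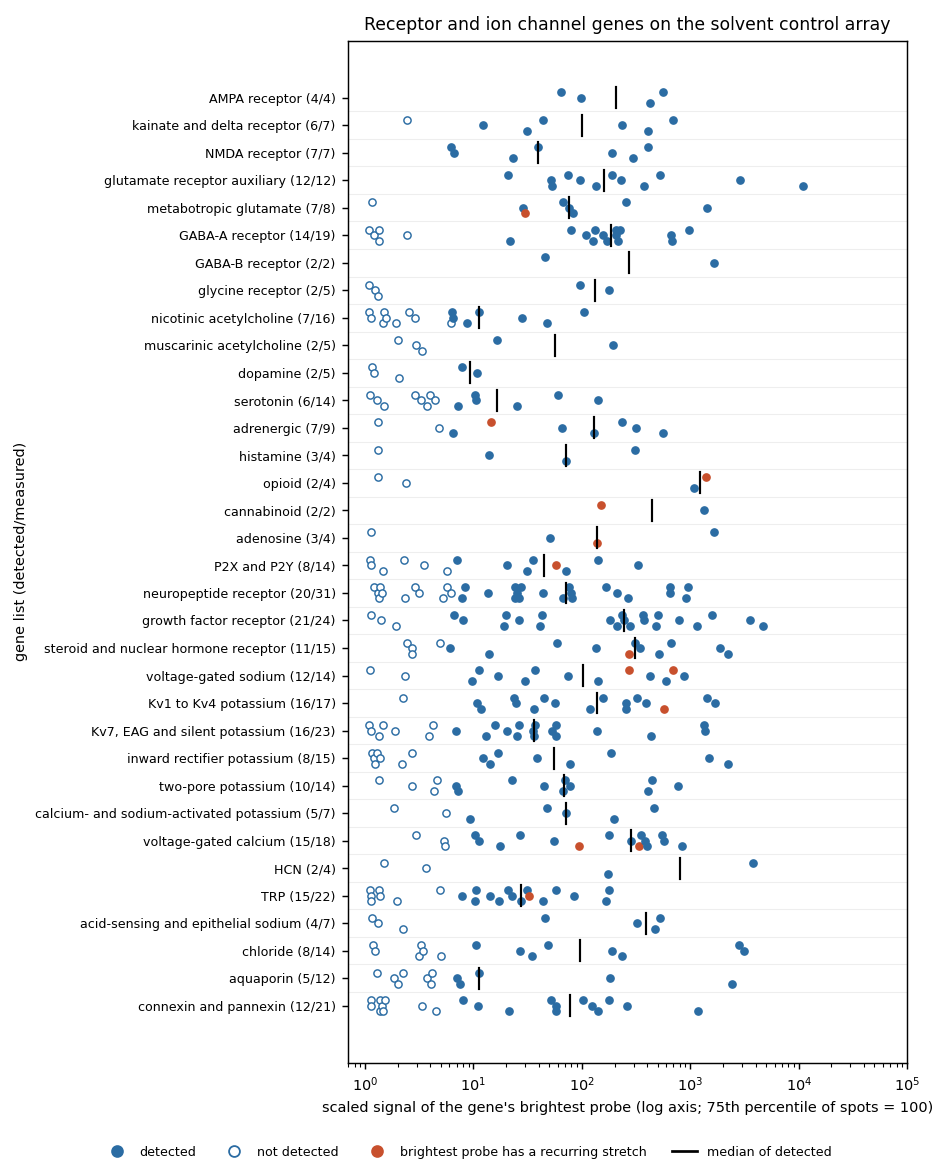
Scaled signal (log axis) of the brightest probe of each receptor and ion channel gene, 1 row per family, with detected over measured genes in brackets. Filled points are detected, open points are not, red marks a brightest probe with a recurring stretch and the bar is the median of the detected genes: AMPA and NMDA receptor rows have no open point, and both detected dopamine receptors lie near the detection limit.

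Genes that respond to activity within an hour were also measured in the solvent control. Of 16 immediate early genes 14 were detected, with a median of 65.9. Jun read 1060, Egr1 read 225 and Nr4a1 read 254. Fos read 64.9 (SD 0.06 on the log2 scale over its spots), Npas4, which neurons induce on calcium entry, read 68.8, Arc read 46.6 and Bdnf read 57.2. Egr3 and Nr4a3 were not detected at 1.34 and 3.56.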

How the data were processed

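Total RNA was amplified with a Low Input Quick Amp kit, labelled with the dye Cy3 and read on a 1-colour Agilent array, per the labels. The authors deposited scanner files in which each spot's intensity was read with Feature Extraction 10.7.1.1, per the file headers, with probes annotated on mm9. The processed signal there, used here, carries no normalization between arrays. It is not the same as the background-subtracted signal of these files, which is taken below as an alternative. A spot was well above background by the software's flag (multiplier 13, per the file headers).

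From these, 98 outlier spots were left out, signals were scaled to the 75th percentile of non-control spots, and repeated spots were averaged as log2 values. Detection of a probe required the flag on most of its spots. Probes were joined to genes of GRCm38.p6 by RefSeq accession (27325), symbol (3523) or older symbol (551), and 24281 stayed without a gene. A gene took its brightest detected probe, or its brightest probe where none was detected. Medians of a list are over its detected genes. List counts include a few genes that are not reported by name.

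Named are the 30 brightest genes that are no clone or predicted gene, the marker genes and members of the lists, with the 3 brightest of each family. The members and lists were chosen with earlier results of these data known. The search for recurring stretches, its length of 16 bases and its minimum of 5 genes were chosen after seeing the data. Averaging, gene calls and the search were tested on simulated data with known answers. Python 3.11.15, pandas 2.3.3 and limma 3.58.1 (for normexp) were used. The number of arrays limits the precision, and no comparison between cultures was made.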

Additional observations from a re-analysis of the deposited data

Results flagged for a closer look

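Probes that were joined to no gene, 24281 in all, were outside every list above. Of these, 7162 were well above background, or 29.5%, against 0.649% of the negative control spots. Among the probes for long intergenic RNA regions 25.5% were well above background.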

How the results depend on the processing

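The count of detected genes ran from 13028, where most probes of a gene had to be detected, to 17792, where spots had only to be positive and significant. It was 13616 at no less than 2 times the detection floor, 14506 with 1 probe per gene, 14251 with detection on the other 2 arrays too and 14514 with outlier spots kept. With positive and significant spots, the detected members were 8 of the endothelial list, 5 erythroid, 7 lymphocyte and granulocyte, 5 hepatocyte, 8 epithelial, 5 spermatid and 6 peripheral neuron genes. With most probes of a gene they were 2 lymphocyte and granulocyte and 3 epithelial genes. At no less than 2 times the floor they were 0 hepatocyte, 3 striated muscle and 1 spermatid genes. The counts of the other cell type lists stayed within 1.5 times under every detection alternative run. Over all 84 lists, which include subtypes, receptors, channels and families, 19 moved beyond 1.5 times with positive and significant spots. At no less than 2 times the floor 12 did, with most probes of a gene 8, and with detection on the other 2 arrays 3. Without recurring stretches in 5 or more genes 2 did, and without those in 10 or more 1 did. Of the 30 brightest genes, 30 were shared with the authors' deposited table, 28 with normexp, 28 with background-subtracted signals, 16 with the mean of detected probes, 18 without recurring stretches in 5 or more genes and 20 without those in 10 or more. List medians moved by more than the spread between spots, 0.06 on the log2 scale, for 64 of 84 lists with normexp, 47 with background-subtracted signals, 48 with the mean of detected probes and all 84 with the deposited table or with scaling to detected spots. The authors' presence calls were not run, because their 3 columns share 1 name. The array measures 1 culture, so no alternative tests how another culture would read.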
